A study of Mus musculus with 200 samples.

Results

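8 genes whose level was higher in mouse embryos carried by F1 mothers than in embryos carried by B6 mothers were followed through both generations of a cross between the strains C57BL/6J (B6) and CAST/EiJ (Cast). *Zkscan5*, *Abhd12*, *Hdac4*, *St6galnac3*, *Pla2g15*, *Polm*, *Eif2ak1* and *Dapk2* were selected by name, on the difference between the mothers in these same embryos, out of 22033 genes in the tables. That difference is therefore given as a description, without a test. Single whole embryos were harvested at E11.5, freed of membranes and placenta, and profiled by 3SEQ, which reads the 3′ ends of polyadenylated RNA. The N2 embryos came from a backcross of (B6 × Cast)F1 animals to B6. In the F1 × B6 cross (65 embryos, 12 litters) the mother was an F1 hybrid and the father B6, and in the B6 × F1 cross (89 embryos, 17 litters) the mother was B6 and the father an F1 hybrid. The F1 animals were the offspring of B6 females, so that all N2 embryos had B6 mitochondria, and at each autosomal gene an N2 embryo was B6/B6 or B6/Cast. The 16 F1 embryos, 8 from B6 females (B6 × Cast) and 8 from Cast females mated to B6 males (Cast × B6), had no part in the difference between mothers by which the genes were chosen. The choice was made with earlier results of these data known. Embryos share litters, and a whole embryo cannot tell fewer cells of a type from less RNA per cell.

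The 8 genes belong to no common pathway. *Eif2ak1* encodes the heme-regulated kinase that phosphorylates the translation initiation factor eIF2α, known for holding globin synthesis in step with heme in red cell precursors. *Hdac4* is a class IIa histone deacetylase that represses MEF2 targets, and *Zkscan5* encodes a zinc finger protein with KRAB and SCAN domains. *Polm* is DNA polymerase mu, which fills gaps during the joining of broken DNA ends. *Pla2g15* is the lysosomal phospholipase A2, *Abhd12* a hydrolase of lysophosphatidylserine, and *St6galnac3* a sialyltransferase of gangliosides. *Dapk2* is a calmodulin-dependent kinase linked to cell death and autophagy.

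In mm9 (GENCODE M1 annotation) the genes lie on 7 chromosomes. *Hdac4* spans chromosome 1, 93829334 to 94044970 on the minus strand, with a second annotated entry of the same name at 93825362 to 93827753, downstream of it. *Abhd12* spans chromosome 2, 150658229 to 150730477 (minus), and *St6galnac3* chromosome 3, 152868369 to 153388026 (minus). *Eif2ak1* (144578657 to 144665125, plus) and *Zkscan5* (145965431 to 145982619, plus) are both on chromosome 5. *Pla2g15* spans chromosome 8, 108674299 to 108688613 (plus), *Dapk2* chromosome 9, 66006030 to 66120049 (plus), and *Polm* chromosome 11, 5727863 to 5738019 (minus). The 3′ end of the *Eif2ak1* entry overlaps *Aimp2* on the other strand, and whether the exon counts used strand is not given in the sources used here, so that reads of these neighbours may not be separable.

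The 250 bases upstream of the start site are shown for *Polm*, *Eif2ak1* and *Dapk2*, which had the largest ratios between mothers among the 6 genes that matched the RefSeq promoter table (GRCm38.p6). Capitals mark matches, on either strand, to a GC box (GGGCGG) or a CCAAT box (CCAAT). The windows are chr11:5838017-5838266 (minus) for *Polm*, chr5:143817542-143817791 (plus) for *Eif2ak1* and chr9:66157976-66158225 (plus) for *Dapk2*.
Polm: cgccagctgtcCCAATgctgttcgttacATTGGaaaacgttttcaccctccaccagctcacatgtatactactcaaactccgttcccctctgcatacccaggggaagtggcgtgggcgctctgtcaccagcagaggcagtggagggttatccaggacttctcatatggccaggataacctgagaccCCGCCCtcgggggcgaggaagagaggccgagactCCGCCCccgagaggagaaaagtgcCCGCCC
Eif2ak1: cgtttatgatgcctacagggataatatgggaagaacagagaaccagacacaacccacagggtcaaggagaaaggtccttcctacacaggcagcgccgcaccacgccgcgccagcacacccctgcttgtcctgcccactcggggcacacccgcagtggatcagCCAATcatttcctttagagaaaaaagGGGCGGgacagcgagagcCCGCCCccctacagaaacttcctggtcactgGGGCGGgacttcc
Dapk2: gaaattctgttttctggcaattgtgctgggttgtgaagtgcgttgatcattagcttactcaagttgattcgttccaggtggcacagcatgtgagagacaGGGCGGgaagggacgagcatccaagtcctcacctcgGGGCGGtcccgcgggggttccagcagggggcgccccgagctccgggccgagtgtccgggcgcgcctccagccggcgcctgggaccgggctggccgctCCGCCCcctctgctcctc
Each of the 3 windows held 3 GC boxes. All 6 promoters had at least 1 GC box, which was present in 32.7% of the 32851 promoter windows of this length, and 4 of the 6 had a CCAAT box, present in 33.8%. *St6galnac3* held an E box (CACGTG), found in 6.02% of windows. The cAMP response element (TGACGTCA), the palindromic NRF1 motif and TATAAA had no match in the 6 windows, and occurred in 1.55%, 0.782% and 12.4% of all windows. The GC content of the 6 windows lay between 58.8% and 65.2%, against a median of 52.4%. The shares are over all windows, whether or not the gene was expressed here, and none was computed for windows of like GC content. These letters describe the windows and show no binding.

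The levels of the 8 genes differed between sequencing lanes, also between lanes of the same kind of mother. A lane was a pool of 12 barcoded libraries, and 14 lanes on 2 flowcells held the N2 libraries. Of these lanes, 8 held only embryos of B6 mothers (A, B, F, H, I, J, K and N), 5 held only embryos of F1 mothers (C, D, E, G and L), and the genotyped embryos of lane M were 8 of F1 mothers and 1 of a B6 mother. Mother and lane therefore overlap almost fully. Reads on genes ranged from 245220 to 5370322 per embryo of a B6 mother and from 473072 to 5134607 per embryo of an F1 mother, with medians of 2299798 and 2269579. Levels are given as RPM, the reads of a gene scaled to the library's total on genes.

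For *Eif2ak1*, embryos of F1 mothers ranged from 1.24 to 160 RPM with a median of 54.3, and embryos of B6 mothers from 0 to 108 RPM with a median of 11.5. The means were 64.9 ± 42.1 (SD, n = 65) and 24.7 ± 25.3 RPM (SD, n = 89), a 2.62-fold ratio. The groups overlapped widely, since 52 of the 65 embryos of F1 mothers lay below the highest embryo of a B6 mother. *Zkscan5* ranged from 2.06 to 77.4 RPM (median 40.2) under F1 mothers and from 0 to 69.5 RPM (median 9.86) under B6 mothers, a 2.55-fold ratio of means. *Polm* had the largest ratio of the 8, 3.52-fold, with 0.412 to 36.6 RPM (median 8.52) under F1 mothers and 0 to 23.3 RPM (median 1.75) under B6 mothers. The median *Polm* count was 20 reads per embryo of an F1 mother and 3 reads per embryo of a B6 mother, and 18 embryos had none.

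*Abhd12*, *Pla2g15*, *St6galnac3* and *Hdac4* had smaller ratios. *Abhd12* had means of 39.9 ± 20.2 and 18.9 ± 12.8 RPM (SD) under F1 and B6 mothers, *Pla2g15* 29.2 ± 14.6 and 14.8 ± 8.89 RPM, *St6galnac3* 36.8 ± 17.4 and 18.3 ± 12.7 RPM, and *Hdac4* 12.7 ± 7.69 and 6.33 ± 6.92 RPM. Their ratios were between 1.98 and 2.11. *Dapk2* was the least covered gene, with means of 5.33 ± 3.38 and 2.05 ± 2.11 RPM and a ratio of 2.60. Its overall mean of 3.43 RPM was under the minimum of 5 RPM, so it entered none of the main tests of level over genes. It was in the tests of allele votes, which had no such minimum. The other 7 ranked from 3 to 19 by p in the Mann-Whitney test over the 9733 autosomal genes tested, in which 4.28% of genes were higher with F1 mothers and 0.75% higher with B6 mothers. The rule used this contrast, so nothing is read from their place in it.

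Lane by lane, the label of genes raised under F1 mothers held only in part. *Eif2ak1* averaged 13.1 ± 10.9 RPM (SD, n = 12) in lane C, which held only embryos of F1 mothers, and 63.7 ± 37 RPM (SD, n = 9) in lane F, which held only embryos of B6 mothers. Lane C was close to lanes A and B of B6 mothers, at 11.6 ± 8.76 and 10.4 ± 4.18 RPM. Lanes D, E and G of F1 mothers averaged 99.1 ± 11.3, 67.4 ± 17.0 and 121 ± 42.2 RPM.

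**Figure D1:**
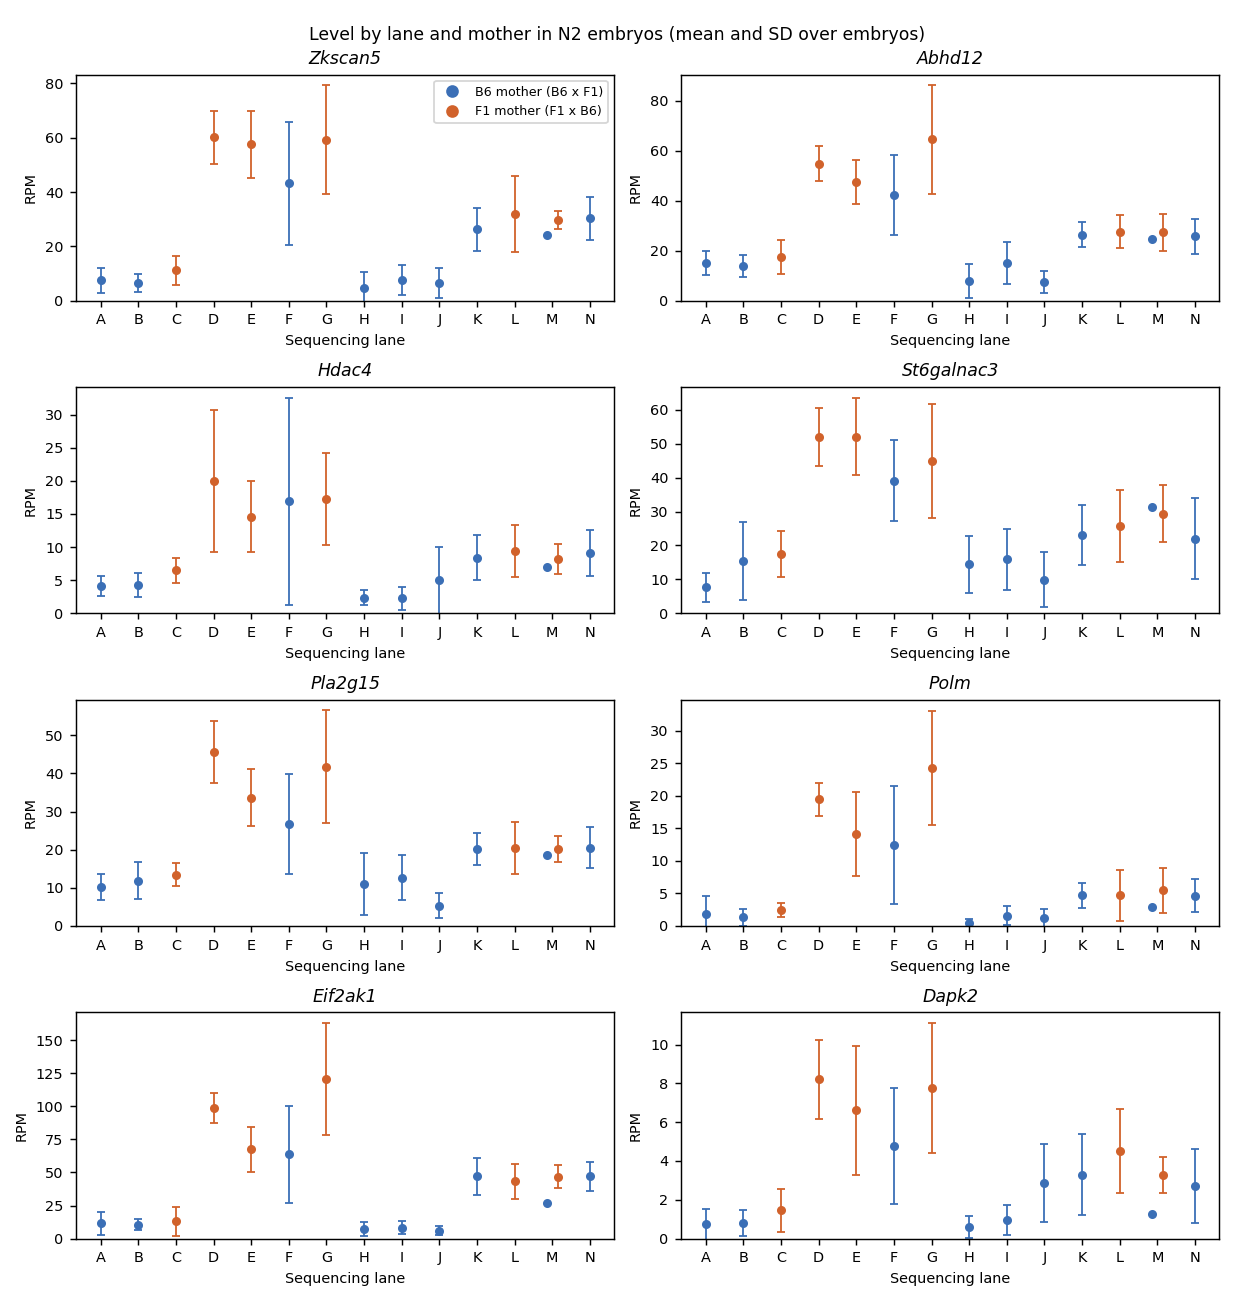
Mean RPM of each gene in each sequencing lane, with 1 panel per gene; points are means and bars the SD over embryos, blue for B6 mothers and orange for F1 mothers. *Eif2ak1* averaged 13.1 RPM in lane C (F1 mothers) and 63.7 RPM in lane F (B6 mothers), and the other panels have lane F above lane C as well.

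On flowcell 2, lanes of both kinds of mother had close means. *Eif2ak1* averaged 47.0 ± 14.2 RPM in lane K and 47.1 ± 10.9 RPM in lane N, both of B6 mothers, and 43.4 ± 13.3 RPM in lane L of F1 mothers. Lanes H, I and J, also of B6 mothers, averaged 7.01 ± 5.37, 8.13 ± 4.82 and 6.08 ± 3.18 RPM. The lowest and highest lane means of *Eif2ak1* were those of lane J and lane G.

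A similar order of lanes recurred in all 8 genes. Lanes D, E and G ranked between 1 and 4 of 14 for every gene, lane F 3 or 4, lane C 9 or 10, and lanes A, B, H, I and J between 8 and 14. Lane F exceeded lane C by 2.00-fold (*Pla2g15*) to 5.13-fold (*Polm*). In *Zkscan5*, lane C averaged 11.1 RPM and lane F 43.2 RPM. The ratio of the highest to the lowest lane mean was 52.7 in *Polm*, where lane H was at 0.461 RPM, and between 6.83 and 19.9 in the others. The median reads per embryo were 3340940 in lane F, the deepest, 1515285 in lane E and 577807 in lane J, the shallowest, which had the lowest mean of *Eif2ak1*, *Abhd12* and *Pla2g15*. Lanes differed in stage as well. Mean somite number was 46.1 in lane F, 46.9 in lane K and 45.2 in lane N. In the other lanes of B6 mothers it lay between 48.4 (lane A) and 51.6 (lane I). Among lanes of F1 mothers it was 51 in lane C, 49 in lane D, 45.7 in lane E and 50.3 in lanes G and L. The part of depth or of stage in the order of lanes was not tested.

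Lane accounted for 58.1% (*Hdac4*) to 78.8% (*Zkscan5*) of the variance of ranks, against a median of 59.4% over all genes tested, and mother for 26.2% to 30.8%, against a median of 1.58%. The share of the mother reflects the choice of genes, and since nearly every lane held one kind of mother, the share of lane could hardly be the smaller one. Within flowcell 1 the ratio between mothers ranged from 1.80 (*Hdac4*) to 3.06 (*Polm*), and within flowcell 2 from 1.43 (*Pla2g15*) to 2.00 (*Zkscan5*). These within-flowcell values still set lanes of one mother against lanes of the other.

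Lane M was the one lane with both mothers. Its embryo of a B6 mother had 24.01 RPM of *Zkscan5*, just under the 24.6 to 33.5 RPM of its 8 lane mates of F1 mothers. For *Abhd12* it had 24.8 RPM against 14.4 to 38.97 RPM, for *Pla2g15* 18.6 against 14.7 to 23.9 RPM, for *Hdac4* 7.04 against 5.23 to 11.6 RPM and for *St6galnac3* 31.5 against 20.9 to 47.4 RPM. It lay among the embryos of F1 mothers for these 4 genes and for *Polm* (2.90 against 0.959 to 10.2 RPM), and below them for *Zkscan5*, *Eif2ak1* (26.9 against 33.1 to 61.5 RPM) and *Dapk2* (1.24 against 2.10 to 4.70 RPM). With 1 embryo on one side there is no test.

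Litters that were split over lanes gave a comparison in which the mother was the same. The 65 embryos of 10 litters were sequenced in 2 or 3 lanes each. In litter 9 of F1 × B6, *Eif2ak1* was at 138 ± 7.51 RPM (SD, n = 3) in lane G and 27.1 ± 27.2 RPM (SD, n = 2) in lane C. In litter 3 of B6 × F1 it was at 43.2 ± 13.1 RPM (n = 2) in lane F, 9.61 ± 4.52 RPM (n = 6) in lane I and 6.60 ± 5.71 RPM (n = 3) in lane J. In litter 3 of F1 × B6 it was at 103 ± 2.98 RPM (n = 5) in lane D and 49.15 ± 5.97 RPM (n = 2) in lane L. Siblings in lanes L and M averaged 46 and 46.5 RPM in litter 11 of F1 × B6, and 38.75 and 48.2 RPM in litter 12. Siblings within 1 lane could be as far apart, with *Eif2ak1* between 7.62 and 108 RPM (median 87.25, n = 7) in litter 4 of B6 × F1, all in lane F. In litter 7 of F1 × B6, all in lane G, it lay between 1.24 and 160 RPM, but with a median of 122 RPM (n = 6). Litter 7 also held the lowest value under F1 mothers of *Zkscan5*, *Abhd12*, *Hdac4*, *St6galnac3*, *Pla2g15* and *Polm*.

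**Figure D2:**
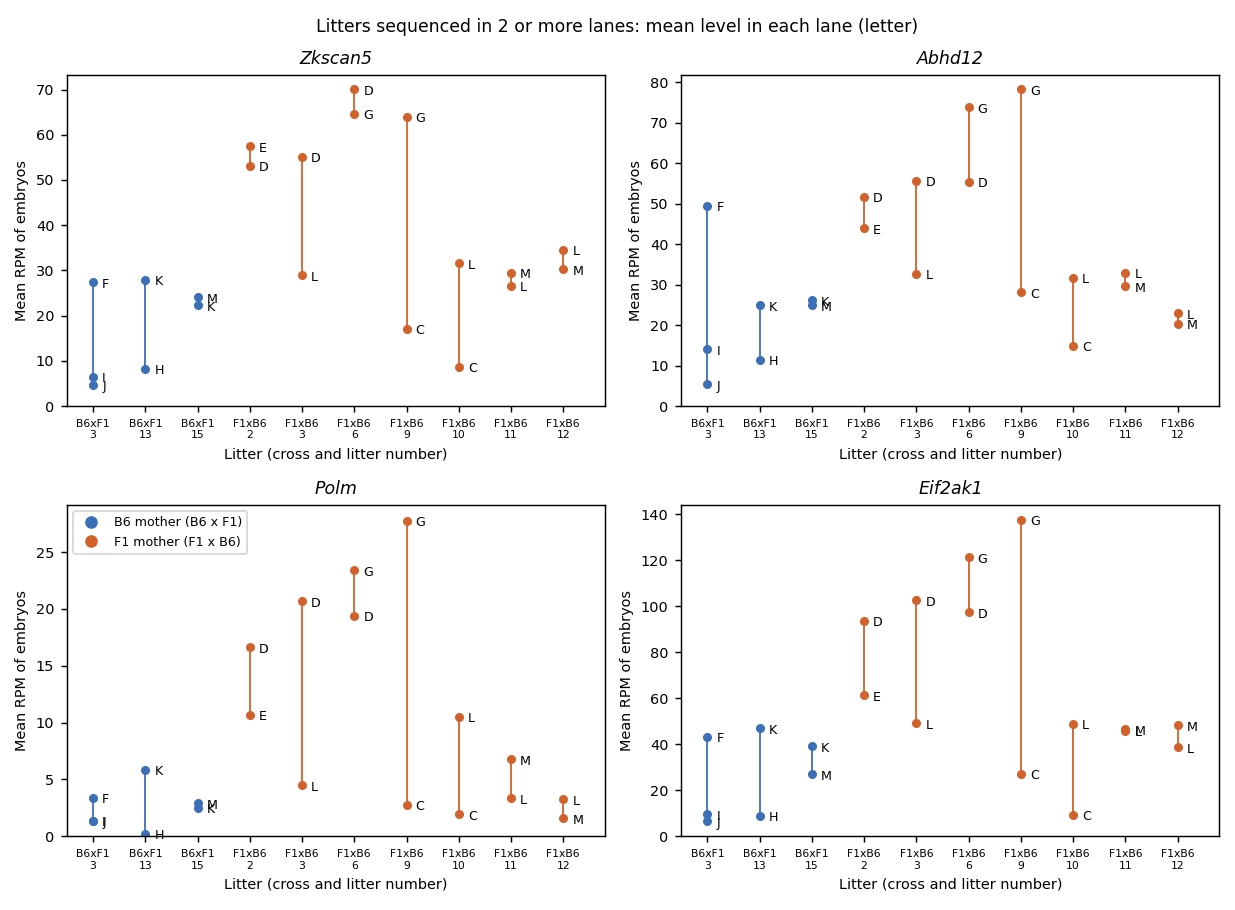
Mean RPM of 4 of the genes in the 10 litters that were sequenced in more than 1 lane; each vertical line is 1 litter, each point the mean of its embryos in the lane named by the letter, blue for B6 and orange for F1 mothers. In litter 9 of F1 × B6, *Eif2ak1* averaged 138 RPM in lane G and 27.1 RPM in lane C.

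*Zkscan5*, *Polm* and *Hdac4* differed between lanes within a litter as well. *Zkscan5* in litter 9 of F1 × B6 was at 63.9 ± 4.10 RPM in lane G and 17.0 ± 13.9 RPM in lane C, and *Polm* averaged 27.8 and 2.78 RPM there. *Hdac4* in litter 13 of B6 × F1 averaged 11.0 RPM in lane K (n = 2) and 2.45 RPM in lane H (n = 4). In litter 3 of B6 × F1, however, *Hdac4* did not follow lane F, with 2.70 RPM in lane F, 2.60 RPM in lane I and 4.56 RPM in lane J. In a test chosen after the lane pattern had been seen, edgeR's quasi-likelihood test of lane with litter in the model, all 7 genes that could be tested differed between lanes, with adjusted p from 3.50e-08 (*Abhd12*) to 0.0188 (*Hdac4*). So did 84.6% of all genes tested, and the F statistics of the 7 genes lay between percentiles 21.3 and 72.7 of all genes, so the lane difference is not particular to them. Of litter with lane in the model, 2 of the 7 passed, *St6galnac3* (adjusted p = 0.00498) and *Hdac4* (adjusted p = 0.0234), against 56.9% of all genes tested, and *Eif2ak1* had an adjusted p of 0.685 by the same test.

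1 embryo of a B6 mother in lane F with 7612442 reads had no genotype and took no part in the comparison of mothers. It had 85.1 RPM of *Eif2ak1*, 53.5 RPM of *Zkscan5*, 19.97 RPM of *Polm* and 8.145 RPM of *Dapk2*, each above the median of the embryos of F1 mothers. *Abhd12* (38.6 RPM), *Hdac4* (23.8 RPM) and *Pla2g15* (35.9 RPM) were above that median too, and *St6galnac3* (35.5 RPM) was below its median of 38.1 RPM.

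Across the 154 N2 embryos the 8 genes rose and fell together. Spearman's rho of log2(RPM + 1) between pairs ranged from 0.620 (*St6galnac3* with *Dapk2*) to 0.924 (*Abhd12* with *Eif2ak1*), with a median of 0.773 over 28 pairs. Within one mother the median was 0.795 over the embryos of F1 mothers and 0.575 over those of B6 mothers. With the mean of each lane removed, rho fell to between 0.0525 and 0.589, with a median of 0.301, and all 28 stayed above 0. For comparison, the median lane-centred rho of a member with all genes tested was between 0.0308 and 0.113. Embryos shared lanes and litters, so these are descriptions. The genes were chosen for a common pattern, and part of their correlation follows from that.

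**Figure D3:**
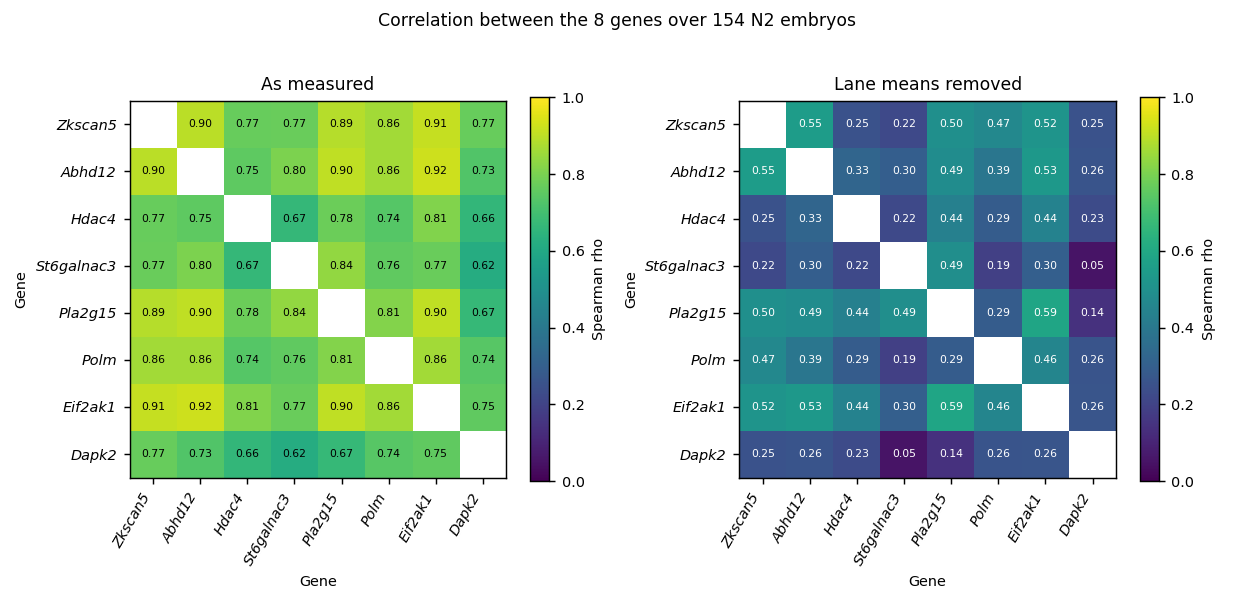
Spearman's rho between each pair of the 8 genes over 154 N2 embryos, on the left as measured and on the right with lane means removed; darker cells are lower. The median fell from 0.773 to 0.301, and *St6galnac3* with *Dapk2* had the lowest value on both sides.

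*Pla2g15* with *Eif2ak1* (0.589), *Zkscan5* with *Abhd12* (0.554) and *Abhd12* with *Eif2ak1* (0.534) were the closest pairs within lanes. *St6galnac3* and *Dapk2* were the loosest members, and *St6galnac3* stayed at 0.493 with *Pla2g15*. Outside the 8, the genes closest to the mean of their lane-centred ranks were *Mbtps1*, the protease that releases membrane-bound transcription factors (rho 0.756), *Qars*, the glutaminyl-tRNA synthetase (0.744), *Ubl5* (0.708), *Eif3c*, a subunit of a translation initiation factor (0.705), and *Ndufb5*, a subunit of respiratory complex I (0.696). *Phc1* (0.682), *Jkamp* (0.679), *Vdac1*, the mitochondrial outer membrane channel (0.678), *Scamp3* (0.677) and *Ak3*, a mitochondrial adenylate kinase (0.677), followed. The 10 were themselves 1.54-fold to 2.89-fold higher under F1 mothers, and 1% of genes had a rho over 0.589.

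The closest single partners within lanes differed between the members. *Eif2ak1* was nearest to *Ndufb5* (rho 0.723), *Sys1* (0.710) and *Poldip2* (0.688), and *St6galnac3* to *Leng8* (0.717), *Eif4ebp3* (0.662) and *Eif3i* (0.652). *Zkscan5* had *Phc1* (0.680), *Qars* (0.648) and *1110038B12Rik* (0.627), *Abhd12* had *1810006K21Rik* (0.673), *Scamp3* (0.660) and *Ubl5* (0.610), and *Pla2g15* had *Tor1b* (0.671), *Qars* (0.662) and *Sys1* (0.629). *Polm* with *Klhdc10* (0.564), *Mbtps1* (0.529) and *Dnajc10* (0.526), *Hdac4* with *Mark3* (0.530), *Mbtps1* (0.523) and *Jkamp* (0.518), and *Dapk2* with *Sri* (0.431), *Fam46a* (0.427) and *Sec61g* (0.423) had weaker partners. These values are across embryos, and the genes with lower counts have the weaker ones.

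Library depth and complexity moved with some members within lanes. With lane means removed, rho with the number of genes detected was 0.466 for *Eif2ak1*, 0.317 for *Zkscan5*, 0.306 for *Polm* and 0.299 for *Abhd12*, against a median of 0.140 over all genes, and 0.0173 for *St6galnac3*. *Eif2ak1* stood above 98.4% of genes in this measure. Spearman's rho with log10 reads ran from -0.132 (*St6galnac3*) to 0.286 (*Eif2ak1*), against a median of 0.0352. Without centring, rho with the number of genes detected was between 0.0720 and 0.334, around the median of 0.265 over all genes. The part of library complexity in the levels was not tested.

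The partners of the members in their own pathways passed at about the rate of all genes. Of 103 tested genes in 8 lists of partners, 6 were higher under F1 mothers and 1 under B6 mothers, beside 4.28% and 0.75% of all genes. The median log2 difference of the listed genes was -0.07, against -0.03 over all genes. All of these genes share the lanes with the mothers, and the test takes littermates as separate: over litter means by the Mann-Whitney test none of the 9733 genes passed, so that each call given for a partner below is lost there (1279 genes had an unadjusted p under 0.05).

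The list of 18 tested genes of the integrated stress response, the pathway of *Eif2ak1*, held 1 gene that passed. This was *Atf5*, a transcription factor of the pathway, at 95.3 ± 35.7 and 66.96 ± 31.95 RPM under F1 and B6 mothers (SD, 1.42-fold, Mann-Whitney adjusted p = 0.00289). None of the 10 histone deacetylases and MEF2 factors passed, the smallest p being those of *Ncor1*, a corepressor (0.80-fold), and *Hdac5*, the class IIa relative of *Hdac4* (0.90-fold), both with an adjusted p of 1 by that test. None of the 11 genes of DNA end joining passed either, with *Poll*, the sister polymerase of *Polm*, at 0.83-fold and *Xrcc6*, which encodes Ku70, at 1.23-fold. Of 15 genes of lysosomal lipid breakdown, *Hexa*, a subunit of β-hexosaminidase, was lower under F1 mothers (0.78-fold, adjusted p = 0.00134).

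In the other lists, *St3gal2*, a sialyltransferase, was the 1 of 13 genes of sialic acid transfer to pass (1.52-fold, adjusted p = 1.75e-04, Mann-Whitney test as above). *Becn1*, which starts autophagy, was at 92.6 ± 51.7 and 41.5 ± 40.2 RPM (SD, 2.23-fold, adjusted p = 4.11e-05), and *Dapk1*, the relative of *Dapk2*, at 37.8 ± 16.4 and 25.4 ± 20.4 RPM (1.49-fold, adjusted p = 0.0071), 2 of 12 genes of their list. *Abhd16a*, a hydrolase that makes lysophosphatidylserine, passed among 13 hydrolases (1.65-fold, adjusted p = 4.98e-06), and *Zkscan14* among 11 SCAN domain zinc fingers and corepressors (2.08-fold, adjusted p = 8.64e-04). Spearman's rho of *Becn1* with the mean rank of the 8 genes over all embryos was 0.891, and lane held 76.6% of its rank variance.

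The summed levels of markers of other cells overlapped between the mothers. The summed level of 8 trophoblast markers was 0 to 10.8 RPM under F1 mothers and 0 to 31.15 RPM under B6 mothers, with *Prl3d1*, *Prl2c2* and *Ctsq* at 0 in every embryo. The 6 primitive erythroid markers found summed to 32114 to 186078 RPM (median 76518) and 28703 to 165516 RPM (median 76388), the 8 visceral yolk sac markers to medians of 478 and 490 RPM (ranges 181 to 857 and 100.5 to 1529 RPM), and the 6 neural markers to 569 and 582 RPM (ranges 268.5 to 1091 and 242 to 1218 RPM). The 5 liver markers summed to 105 to 1074 RPM (median 459) and 51.3 to 1223 RPM (median 334), and had a lane-centred rho of 0.331 with the mean rank of the members. The 6 genes listed for decidua (*Prl8a2*, *Prl6a1*, *Erv3*, *Des*, *Hand2* and *Pgr*) summed to 93.2 to 454 RPM and 96.7 to 1024 RPM, with *Prl6a1* at 0 throughout. Whether the embryo itself expressed them was not tested, so the sum is no measure of decidua. Of the 2 tested genes of that list, 1 passed in each direction. No tested gene of the other lists passed, of which trophoblast had none tested. The part of any of these cells in the members' levels was not tested.

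Somite number, counted at dissection, gave a test that the choice of genes did not use. Over 147 embryos, *Eif2ak1* fell with somite number (rho -0.22, permutation p = 0.00674; Pearson r -0.16, permutation p = 0.0466) and so did *Zkscan5* (rho -0.22, permutation p = 0.00882; r -0.23, permutation p = 0.00606). Their q, adjusted over all genes, were 0.0350 and 0.0410, in a test in which 7.99% of genes fell and 14.3% rose. Without the 2 embryos farthest from the median number, r was -0.14 and -0.21. The other 5 tested genes had rho from -0.19 (*Polm*, q = 0.0766) to -0.05 (*St6galnac3*, q = 0.686) and did not pass. *Dapk2* had a rho of -0.10 (permutation p = 0.208).

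Within mothers, 6 of the 7 tested genes fell with somite number among embryos of B6 mothers, from -0.33 (*Hdac4*, q = 0.00636) to -0.52 (*Eif2ak1*, q = 9.92e-06), beside 34.6% of all genes. Among embryos of F1 mothers *St6galnac3* fell (rho -0.39, q = 0.0138), 1 of the 7, beside 2.87% of all genes. Over litter means neither *Eif2ak1* (rho -0.31, q = 0.496) nor *Zkscan5* (rho -0.27, q = 0.534) passed. The direction did not hold within lanes. With lane regressed out of the ranks, rho was 0.06 for *Eif2ak1* (q = 0.747) and 0.10 for *Zkscan5* (q = 0.529), and all 7 tested genes turned positive, of which *St6galnac3* passed (rho 0.29, q = 0.00859), beside 8.53% of all genes that rose. With litter means removed all 7 were positive and none passed by this test of Spearman's rho, with p under 0.05 for *St6galnac3* (p = 0.00596, q = 0.125) and *Hdac4* (p = 0.0491, q = 0.307).

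The rule did not use whether an embryo carried a Cast allele at the gene itself. On log2(RPM + 1) with lane means removed, none of the 7 tested genes passed the rank-sum test (q under 0.01), which 19.7% of all genes passed. *Eif2ak1* was lower by 0.23 in the 73 heterozygous embryos than in the 80 B6/B6 embryos (p = 0.00661, q = 0.0275), and *Polm* was 0.34 higher in 77 than in 77 embryos (p = 0.0141, q = 0.0517). *St6galnac3* differed by -0.14 (p = 0.0269, q = 0.0871), and the other 4 had q from 0.231 to 0.749. Without removing lane means, *Polm* passed, with a difference of 0.81 (q = 0.00773), but its genotypes were not balanced over the mothers, with 38 of 65 embryos of F1 mothers and 39 of 89 of B6 mothers heterozygous, so that this value holds part of the difference between mothers. Within each mother the *Polm* means were 4.47 ± 5.57 RPM in heterozygous and 2.46 ± 3.75 RPM in B6/B6 embryos of B6 mothers, and 13.1 ± 9.68 and 9.90 ± 9.40 RPM under F1 mothers (SD).

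Reads over SNPs, counted by the authors as votes for either allele, gave the B6 allele fraction (BAF) at 7 of the genes. *Pla2g15* had no vote in any embryo, and so its alleles were not analysed here. In the 16 F1 and the heterozygous N2 embryos together, *Eif2ak1* favoured the B6 allele (BAF 0.565, adjusted p = 2.13e-06, n = 89, Bonferroni-adjusted paired test) and *Polm* the Cast allele (BAF 0.349, adjusted p = 3.60e-05, n = 93). These were 2 of 5 genes tested, beside 18.9% of all genes. In the F1 embryos alone neither passed the threshold of 0.01, and in the N2 heterozygotes alone *Eif2ak1* passed and *Polm* did not. *Abhd12* did not pass (BAF 0.444, adjusted p = 0.120) and *St6galnac3* (0.478) and *Dapk2* (0.361) had an adjusted p of 1. The BAF of *Dapk2* was 0.308 in the F1 embryos alone (adjusted p = 0.0124, paired test) and 0.476 in the N2 heterozygotes alone, and it passed in neither. *Zkscan5* and *Hdac4* had under 20 votes in the heterozygotes of an N2 cross and were not tested.

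The fraction of *Eif2ak1* was alike in all 4 sets of embryos, at 0.565 ± 0.0208 (SD, n = 8) in B6 × Cast and 0.568 ± 0.0579 (SD, n = 8) in Cast × B6 embryos, and, over pooled votes, 0.559 and 0.565 in the heterozygotes of B6 and of F1 mothers. In *Polm* the pooled fraction was 0.316 and 0.375 in the 2 F1 crosses (SD over embryos 0.0588 and 0.117) and 0.401 and 0.367 in the N2 heterozygotes. In *Dapk2* it was 0.315 (208 of 661 votes for B6) and 0.296 in the F1 crosses, and 0.466 (95% Wilson interval 0.399 to 0.534) and 0.483 (0.425 to 0.540) in the N2 heterozygotes, a gap between generations that was not tested. Among the N2 heterozygotes the intervals of the 2 mothers overlapped in all 7 genes with votes. *Zkscan5* had only 7 and 4 votes there and *Hdac4* 11 and 11, too few for their overlap to say much. Between the 2 F1 crosses the intervals of *Polm* did not overlap, at 0.293 to 0.341 and 0.347 to 0.405. No member passed the binomial tests for an effect of the parent of origin, which 0.405% of all genes passed. In both F1 crosses *Eif2ak1* favoured the B6 allele, and *Polm* and *Dapk2* the Cast allele. The intervals cover counting error only.

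**Figure D4:**
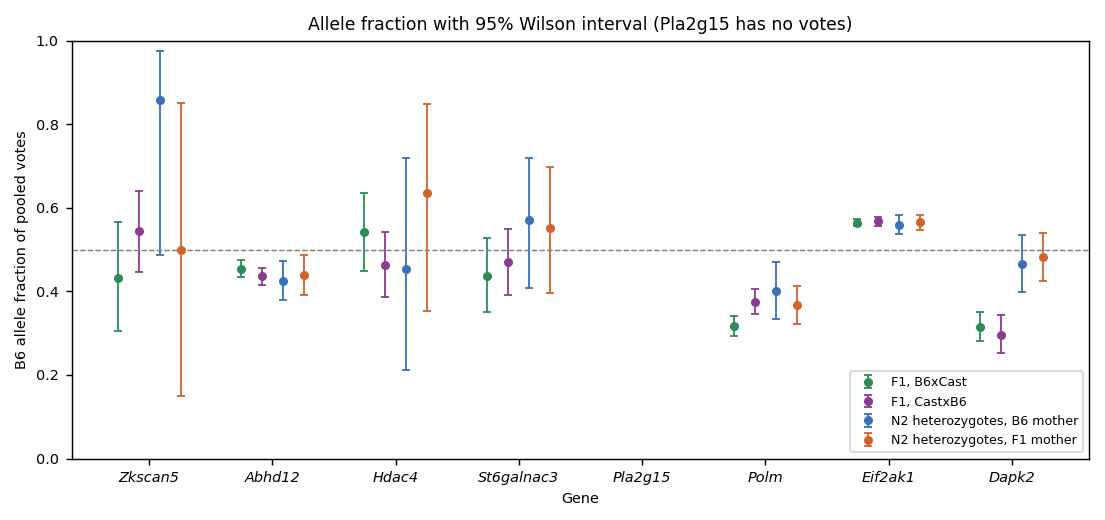
B6 allele fraction of the pooled votes of each gene in 4 sets of embryos; bars are 95% Wilson intervals, the dashed line marks 0.5, and *Pla2g15* has no votes. *Eif2ak1* lies near 0.565 in all 4 sets, and *Dapk2* at 0.315 and 0.296 in F1 and 0.466 and 0.483 in N2 embryos.

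The reciprocal F1 crosses, in which no mother was an F1, were sequenced to 15703888 to 38234229 reads per embryo. *Abhd12* was at 73.6, 77.01, 77.3, 79.99, 80.1, 82.3, 84.4 and 95.8 RPM in the 8 B6 × Cast embryos. In the 8 Cast × B6 embryos it was at 23.9, 28.7, 40.9, 44.3, 50.7, 63.9, 72.04 and 90.3 RPM. All but 1 of the Cast × B6 embryos lay below the lowest B6 × Cast embryo, and their spread was wider. The log2 difference, Cast × B6 minus B6 × Cast, was -0.60 ± 0.20 (SE, edgeR, adjusted p = 0.0336), beside 29.3% of genes called. Of the 7 tested genes *Abhd12* passed in this fit, and it no longer did with somite number as a covariate (-0.55 ± 0.30, adjusted p = 0.299) or without litter 1 of Cast × B6, litter 3 or litter 5 of B6 × Cast (adjusted p from 0.104 to 0.211, edgeR). The fit with somite number left out the embryos without one, among them the Cast × B6 embryo at 72.04 RPM. Its result therefore mixes the adjustment for stage with the loss of embryos. Litter 5 of B6 × Cast against litter 2 of Cast × B6 alone gave an adjusted p of 0.184 (edgeR).

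The remaining tested genes did not pass in the edgeR fit. *Pla2g15* passed with DESeq2 (adjusted p = 0.0399), beside 3193 of all 9429 genes tested in that fit. *Hdac4* passed with edgeR without litter 2 of Cast × B6 (log2 difference 0.67, adjusted p = 0.0332), beside 4406 of all 9499 genes. The log2 differences were -0.65 ± 0.31 for *Eif2ak1* (SE, edgeR adjusted p = 0.117), -0.50 ± 0.19 for *Pla2g15* (adjusted p = 0.0605), -0.46 ± 0.20 for *Zkscan5* (adjusted p = 0.0924) and -0.39 ± 0.31 for *Polm* (adjusted p = 0.359). For *St6galnac3* the difference was 0.01 ± 0.11 (adjusted p = 0.949) and for *Hdac4* 0.37 ± 0.25 (adjusted p = 0.278). *Dapk2* averaged 4.98 ± 1.21 and 3.23 ± 2.52 RPM (SD, n = 8 each) and was below the minimum. 2 litters per cross allow an exact permutation test over litters no p under 0.333. The litters differed in stage, with 58 to 63 and 48 to 50 somites in B6 × Cast and 41 to 43 and 46 to 48 in Cast × B6. Stage and cross therefore cannot be told apart fully. Somite numbers were given for 2 of 3 embryos in litter 3 of B6 × Cast and for 3 of 4 in each Cast × B6 litter. Litter 2 of Cast × B6 was sequenced in runs hs1 and hs2, and the other litters in runs gaIIx and hs1. The contrast of litter 5 of B6 × Cast with litter 2 of Cast × B6 therefore differed in run too. The part of sequencing run was not tested.

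Embryos of 1 Cast × B6 litter could differ widely. For *Eif2ak1*, litter 1 of Cast × B6 held 24.9, 44.8, 52.4 and 109.5 RPM, and litter 2 held 18.6, 32.7, 46.4 and 108 RPM. The same embryo was highest in its litter for *Zkscan5*, *Abhd12*, *Hdac4*, *Pla2g15*, *Polm*, *Eif2ak1* and *Dapk2* in both litters, and for *St6galnac3* in litter 2. Over the 16 F1 embryos rho between pairs ranged from 0.103 to 0.965, with a median of 0.753, and the 7 pairs with *St6galnac3* lay between 0.103 and 0.271. *Pla2g15* with *Eif2ak1* (0.965) and *Polm* with *Dapk2* (0.953) were the closest pairs.

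**Figure D5:**
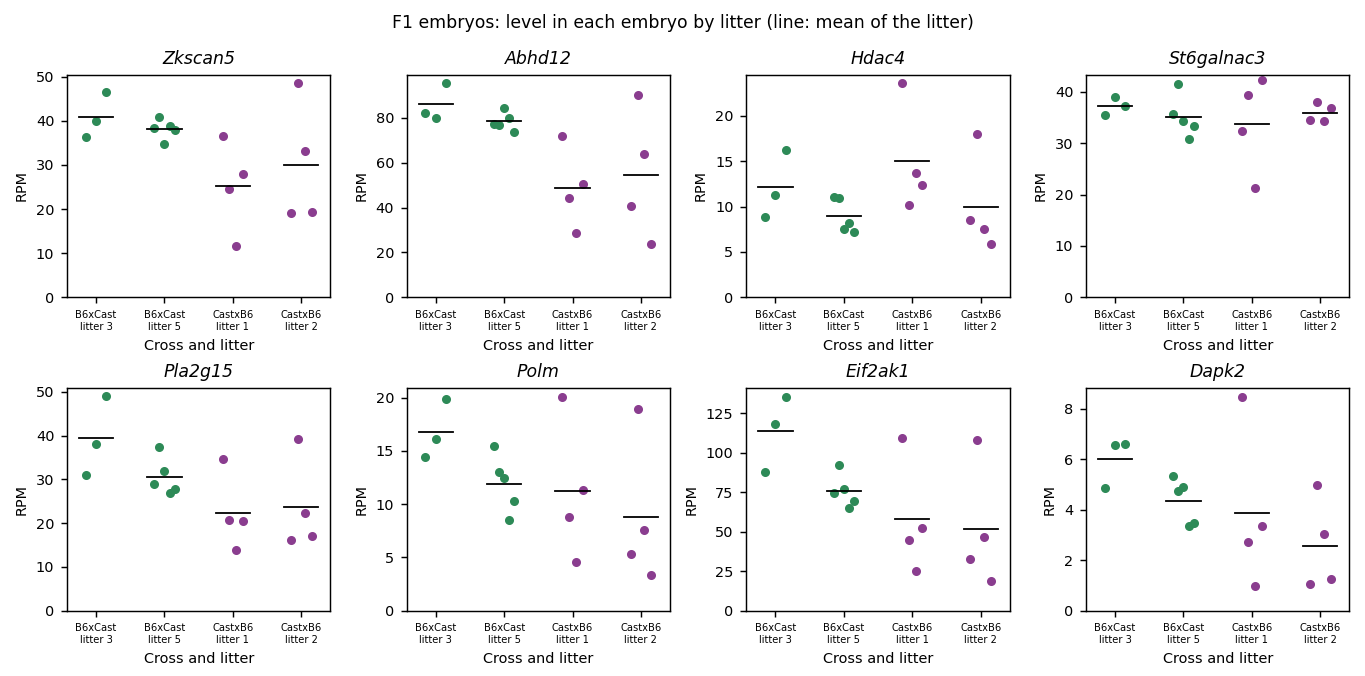
RPM of the 8 genes in each of the 16 F1 embryos, by litter; points are embryos, black lines are means of a litter, points green for B6 × Cast and purple for Cast × B6. In both Cast × B6 litters 1 embryo lies above its litter mates in 7 of the genes, as for *Eif2ak1* at 109.5 and 108 RPM.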

How the data were processed

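3SEQ libraries of single embryos were trimmed and mapped by the authors with Bowtie2 to mm9 (named in the submitters' processing notes) and to a Cast genome made from SNPs, and they deposited unscaled counts of exonic reads for each RefSeq gene. Allele votes were deposited as estimated counts, since a read over several SNPs is split among them. In the authors' genotype table, made with a hidden Markov model, the code 0.5 was read as B6/Cast and 1 as B6/B6, and a further code, 0, was not used. Counts were divided by the total reads on genes to give RPM. 154 of 168 N2 columns entered the comparisons. 6 embryos without genotypes and 8 libraries whose labels name no mother were left out.

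The mother contrast used the Mann-Whitney test with a Bonferroni-adjusted p under 0.01 over autosomal genes averaging 5 RPM or more. The F1 crosses used edgeR 4.0.16 (quasi-likelihood, TMM, FDR under 0.05), with DESeq2 1.42.0 as an alternative, in R 4.3.3. Other tests used scipy 1.17.1. These were Spearman's correlation with somite number (q under 0.05, and 100000 permutations for single genes), the rank-sum test by genotype (q under 0.01), a paired t-test of votes (at least 20 per cross, BAF outside 0.45 to 0.55) and binomial tests of votes rounded to whole numbers. Reads were counted at 3′ ends, so levels were not compared between genes. On simulated data with 200 changed genes the F1 test recovered 98.5% of them with 16 false calls and the lane test 91.5% with 13. The paired test, at 100 votes per cross or more, recovered 73% with 0. The simulated embryos were drawn as independent, without effects of litter, stage or run. In the F1 test they varied less than *Eif2ak1* did among Cast × B6 embryos. The paired test was simulated in F1 embryos alone, with a stronger allele bias than *Eif2ak1* or *Polm* had. These rates may therefore not hold for the real embryos or for effects of the members' size.

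The members and the lists of partners and markers were chosen with earlier results of these data known. Named genes are the 8 members, the 3 nearest genes of each member and the 10 nearest to their mean, and up to 4 called genes per partner list, or the 2 with the smallest p. Embryos of a litter share a mother, so p-values over embryos treat littermates as separate. Alternatives covered normalization, filters, adjustment, lane, litter, flowcell, stage and mother.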

Additional observations from a re-analysis of the deposited data

Results flagged for a closer look

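2 of 16 sets of 8 F1 embryos, 1 for each gene and cross, had an embryo far from the others, and chance gives about 1 in 20. *Hdac4* was at 16.2 RPM in 1 B6 × Cast embryo of litter 3, where the next highest was at 11.3 RPM. *St6galnac3* was at 21.2 RPM in 1 Cast × B6 embryo of litter 1, where the next lowest was at 32.4 RPM. That Cast × B6 embryo was also the lowest of its litter for *Zkscan5* (11.7 RPM), *Abhd12* (28.7 RPM) and *Eif2ak1* (24.9 RPM).

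1 library of lane E with 1210811 reads, whose labels name no mother, was used in no comparison and stood above every embryo of a B6 mother in *Zkscan5* (71.03 RPM, against at most 69.5 RPM) and *Dapk2* (11.6 RPM, against at most 8.49 RPM). Its *Dapk2* count was 14 reads.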

How the results depend on the processing

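No paired analysis was possible because the labels number litters and embryos within each cross and give no number that pairs embryos across crosses. The 490 genes called by mother became 2077 with Benjamini-Hochberg adjustment, 2514 with edgeR, 2714 with DESeq2, 323 with all labelled embryos, 212 in flowcell 1, 24 in flowcell 2, and 0 over means of litters or of lanes, by the Mann-Whitney test, where 1279 and 399 had an unadjusted p under 0.05; lane means cannot pass. Genes higher and lower with F1 mothers numbered 417 and 73 in the Mann-Whitney test, 1455 and 1059 with edgeR, 1460 and 1254 with DESeq2, and 32 and 180 in flowcell 1. The difference between mothers of each member kept its sign with TMM scaling, with depth regressed out, within each flowcell, over litter means and without any 1 lane. The members were chosen on this difference in these embryos, so a kept sign was nearly fixed in advance and nothing is read from it. These settings also still set lanes of one mother against lanes of the other. In lane M alone, an alternative chosen after seeing the data, *St6galnac3* turned to -0.10, with 1 embryo of a B6 mother.

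The 2785 genes called between F1 crosses became 1225 for litter 5 against litter 2, and lay between 1413 and 4406 when leaving out 1 litter. With somite number as a covariate 240 were called, in a fit that left out the embryos without a somite number. *Hdac4* lay between -0.023 and 0.67 when leaving out 1 litter, and *St6galnac3* turned to -0.018 with no RPM minimum. The 1714 genes with allele-specific expression became 1085 in F1 embryos alone and 2889 with Benjamini-Hochberg adjustment, and *St6galnac3* had a BAF of 0.562 in N2 heterozygotes alone. *Polm* did not pass in either generation alone, nor *Eif2ak1* in F1 embryos alone.

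The 1919 genes that differed by genotype became 1183 without removing lane means, 1032 under B6 and 1089 under F1 mothers. *Zkscan5* turned to 0.031 without removing lane means and *Pla2g15* to -0.034 under F1 mothers and -0.0036 with log2(RPM + 0.1). The 2166 genes that moved with somite number became 1125 with lane regressed out, 5022 under B6 mothers, 168 over litter means and 187 with litter-centred values, chosen after seeing the data. With lane regressed out, rho was 0.10 for *Zkscan5*, 0.15 for *Abhd12*, 0.13 for *Hdac4*, 0.29 for *St6galnac3*, 0.18 for *Pla2g15*, 0.0185 for *Polm* and 0.0576 for *Eif2ak1*, and with litter-centred values 0.17, 0.14, 0.18, 0.25, 0.15, 0.10 and 0.14. The cause was not tested. At a median of 3 reads of *Polm* under B6 mothers, single embryos carry little precision.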

Other observations

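The unlabelled library of lane E held 81.8 RPM of *Eif2ak1*, 42.9 RPM of *Abhd12*, 51.2 RPM of *St6galnac3*, 37.2 RPM of *Pla2g15*, 25.6 RPM of *Hdac4* and 19.8 RPM of *Polm*. The lane means of the 11 genotyped embryos of lane E were 67.4, 47.4, 52.2, 33.6, 14.6 and 14.1 RPM. The other 7 unlabelled libraries held 5 to 17237 reads in all, and no read of *Zkscan5* or *Eif2ak1*. 1 embryo of a B6 mother in lane J without a genotype had 172841 reads, with 2 reads of *Eif2ak1* and 1 of *Zkscan5*.

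The longest annotated transcripts of the members were 918 (*St6galnac3*) to 4330 bases (*Eif2ak1*) long with a GC content of 48.5% to 56.7%, and the medians of all genes tested were 3016 bases and 51.8%. Both features were looked at after the lane pattern had been seen.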
